A study of Macaca fascicularis with 64 samples.

Results

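Newborn cynomolgus monkeys (Macaca fascicularis) with mutant or wild-type SIRT6 were profiled by bulk RNA sequencing, and the differences that recurred from tissue to tissue are described here. The newborn set held 56 of the 64 libraries of the series. They came from 2 animals labelled SIRT6 mutant, named KO2 and KO3 in the titles and SIRT6-/- in the design text, and from 2 wild-type animals, WT2 and WT3. Each animal gave 7 tissues (brain, heart, kidney, liver, lung, muscle and thymus), with 2 repeat libraries per tissue. The other 8 libraries were of WT fetal brain and muscle at gestation month 2 or 4, with 2 libraries per tissue and month. The sources used here do not give the kind of mutation, the age in days or how the animals are related.

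SIRT6 is a nuclear sirtuin, an NAD-dependent enzyme that removes acetyl groups from histones and so helps to keep target genes silent. Around birth, primate tissues pass from fetal to postnatal programmes: red cells change from embryonic and fetal to adult globins, circulating glucocorticoids rise, milk replaces placental nutrients, and mitochondrial oxidation gains over anaerobic metabolism. The gene lists used here were drawn from these programmes, from stress responses, and from the cell types that bulk tissue holds.

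A gene counted as apart in a tissue when both KO values lay above or both lay below the WT values, each value being the mean log2(FPKM + 1) of an animal's 2 libraries. FPKM is fragments scaled by gene length and by library, and only tissues in which the gene averaged 1 FPKM or more were counted. A gene counted as shared when it was apart in 1 direction in 5 or more of the 7 tissues and in the other direction in none. These counts are descriptions without a test, because 2 against 2 animals cannot go below p = 0.33 in a two-sided exact permutation test. The test was limma on each animal's average over the 7 tissues (n = 2 KO and 2 WT animals), adjusted over 15032 genes with the Benjamini-Hochberg method, and adjusted p below is from that fit.

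Own-tissue marker genes summed higher in all 8 libraries of each tissue than in any library of another tissue, so the tissue labels held. Median absolute log2 differences between repeat libraries were 0.076 to 0.124, between WT2 and WT3 0.225 to 0.342, and between KO2 and KO3 0.348 to 0.524. The KO animals thus differed from each other more than the WT animals did. KO2 stood apart in 2 respects, and both are given beside the results they touch: its typical gene lay below WT in each tissue (medians of −0.182 to −0.432), and its heat shock genes were far above those of the other animals. The KO3 brain stood apart in macrophage genes, which summed to 6.88 FPKM against 286 in the KO2 brain and 251 and 277 in the WT brains. In bulk tissue, fewer cells of a type and less RNA per cell cannot be told apart.

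The SIRT6 transcript itself was not uniformly lower in KO. It ranged from 3.07 to 12.4 FPKM over the KO animals and tissues (median 8.67) and from 6.18 to 12.4 in WT (median 8.49). It was apart in brain, where KO was lower, and in heart, where KO was higher, and overlapped in the other tissues. Of the genes measured in brain 35.1% were lower in KO in this sense, and of those in heart 19.3% were higher. The average changed by −0.20 (SE 0.32, adjusted p = 0.825), and a gene-level FPKM does not test a small deletion or frameshift.

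Of 11521 genes measured in 5 or more tissues, 383 were shared higher in KO (3.32%) and 774 were shared lower (6.72%). Of 9501 genes measured in every tissue, 36 (0.379%) were higher in all 7 and 72 (0.758%) were lower in all 7. Larger differences overlap less easily, so the rule itself ties the number of tissues to the size of the change. The median log2 change was 0.684, 0.839 and 1.03 for genes higher in 5, 6 and 7 tissues, and −0.621, −0.751 and −0.859 for genes lower in 5, 6 and 7. In single tissues the share of measured genes higher in KO was 11.3% in lung, 14.4% in thymus, 15.3% in brain, 15.8% in liver, 19.3% in heart, 21.6% in muscle and 22.9% in kidney. The share lower was 16.8% in heart, 20.2% in muscle, 26.3% in lung, 27.7% in thymus, 29.6% in kidney, 31.6% in liver and 35.1% in brain. Just outside the rule, 413 genes were higher and 873 lower in exactly 4 tissues, with median changes of 0.498 and −0.52. A larger set, 3592 genes (31.2%), was apart in opposite directions in at least 1 tissue each way. In the average over tissues limma called 38 genes higher (0.253% of the genes tested) and 36 lower (0.239%). Of these, 24 of the 38 and 18 of the 36 were also shared in the same direction. The average thus also holds genes that differed in few tissues, and genes such as REC114 that reached 1 FPKM in few tissues.

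Those remaining calls include SDS, CRP and UGT3A1, enzymes or plasma proteins made mainly in liver or kidney. In KO these 3 reached at most 1.37, 2.57 and 0.784 FPKM, so they met the level filter only through WT. Genes of this kind could be called only lower. SDS, which degrades serine, was apart in 2 tissues, with log2 changes of −6.69 in liver and −2.54 in brain. Without liver SDS, CRP and UGT3A1 were not called (adjusted p = 0.26, 0.38 and 0.088), nor was UGT3A1 without kidney (0.1). Over all genes, limma's F test of whether the KO change differed among tissues called 861 genes (5.73%). Among the shared genes it called 10 of 383 higher and 21 of 774 lower. The sharing rule leaves out genes apart in opposite directions, so these counts partly follow from that choice.

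The direction split depended on scale. When each library was centred on its own median, 697 genes were shared higher and 621 lower, and 796 of the 1157 shared genes stayed shared in the same direction. The shared lower genes lay farther from WT in KO2 than in KO3 in 682 of 774 cases, while the shared higher genes divided 210 to 173. Of the 15032 genes tested, 5587 had a positive average change, and 7833 after centring, and the counts of signs below are to be read against these. Of the called genes named, HBZ, HBB and REC114 kept their call after centring and after quantile normalisation and the others lost it. With no level filter none was called. Without brain, HBZ, HBB, KLF9, REC114, ADAD2, SDS, CRP and UGT3A1 kept their call, and the other called genes named lost it, among them IGF2 (0.076), TP53INP2 (0.066), C1QB (0.2) and RPS26 (0.18). All 30 genes in the map of changes by tissue stayed apart in their direction in 5 or more tissues, and in none the other way, both after centring and after quantile normalisation.

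**Figure D1:**
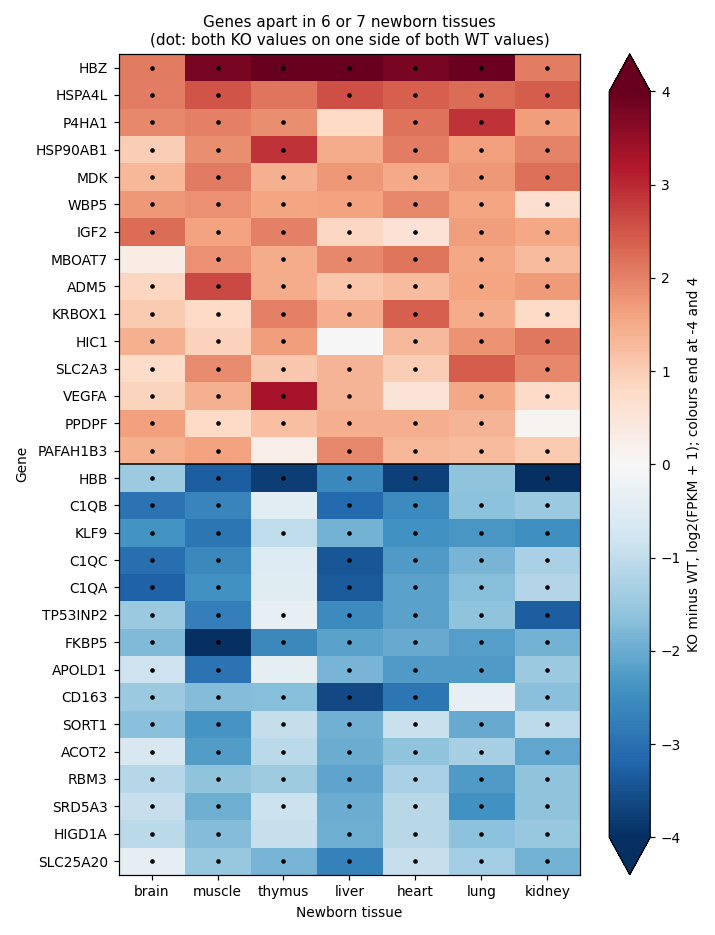
Log2 change, KO minus WT, of the 15 genes with the highest and the 15 with the lowest median change among those apart in 6 or 7 tissues at a mean of 5 FPKM or more in 5 or more tissues, in rows, by newborn tissue, in columns. A dot marks a tissue where both KO values lay on one side of both WT values, which holds in 6 or 7 tissues for every gene shown.

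Fetal growth and globin genes are described first among the shared higher genes. HBZ, an embryonic alpha-like globin, ranged from 1.54 to 546 FPKM in KO (median 25.3) and from 0 to 7.34 in WT (median 1.34), and its KO values were above WT in all 7 tissues. For IGF2, the imprinted fetal growth factor, muscle gave 2760 (KO2) and 2120 FPKM (KO3), and the WT muscles 831 and 763. In brain, where it is low, the KO values were 87.6 and 16.7 and the WT values 5.61 and 9.93. The change of IGF2 ran from 0.59 in heart to 2.22 in brain, and its average rose by 1.50 (SE 0.22, adjusted p = 0.0119).

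MDK, the heparin-binding growth factor midkine, which is abundant in embryos, was above both WT animals in both KO animals in all 7 tissues. Its kidney levels were 99.7 and 210 FPKM in the KO animals and 35.6 and 25.8 in the WT animals. In brain they were 37.8 and 11.2 against 7.92 and 7.38. Its average rose by 1.71 (SE 0.32, adjusted p = 0.0392), a call lost without KO2 (0.17) or WT3 (0.26), and without heart (0.054), lung (0.052) or kidney (0.099). PAFAH1B3, a catalytic subunit of a brain platelet-activating factor acetylhydrolase, was apart in 6 tissues (median change 1.32, adjusted p = 0.107). Its KO levels had a median of 31.2 FPKM, against 13.5 in WT. IGF2BP2, which binds IGF2 messenger RNA, was higher in 6 tissues with a median change of 0.46, while IGF1, the main postnatal growth factor of this axis, was lower in 6 with a median change of −0.72. Neither passed the test (adjusted p = 0.393 and 0.272). IGF1 was lower in 3 tissues after either scaling and so was not shared there, and none of the 2 shared lower genes of the growth hormone axis remained.

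Imprinted genes, which are expressed from 1 parental allele and many of which act in fetal growth, had 3 of 21 measured members shared higher (14.3% against 3.32% of all genes) and 0 shared lower. Besides IGF2 these were PEG10 and NDN, each apart in 5 tissues with median changes of 0.95 and 0.79. Both were lower on average in KO brain, where PEG10 changed by −0.69 and NDN by −0.32. The median of the list's average changes was 0.397, against −0.113 for all genes, and IGF2 alone was called.

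Genes of the hypoxia response, which HIF1 induces when oxygen is short, had 5 of 34 measured members shared higher (14.7%) and 0 lower. P4HA1, a collagen prolyl hydroxylase, reached 107 and 60.4 FPKM in the KO lungs, and the WT lungs had 7.97 and 12.6. It was apart in every tissue but liver, where KO2 at 23.1 lay between the WT values of 18.4 and 27.8. VEGFA, the vascular growth factor, was apart in every tissue but heart, and in thymus it stood at 75.5 and 50.2 against 6.49 and 4.4. P4HA1 rose by 1.90 (SE 0.32, adjusted p = 0.0202) and VEGFA by 1.40 (SE 0.26, adjusted p = 0.0392) in the average. Neither call held without KO2 (0.07 and 0.056). VEGFA was also lost without WT2 (0.13), WT3 (0.067), thymus (0.079) or lung (0.054), and P4HA1 without liver (0.063). The glucose transporter SLC2A3 was apart in 6 tissues and P4HA2 in 5, and neither passed (adjusted p = 0.129 and 0.165). The list's median change was −0.203 in KO2 and 0.82 in KO3, so the animals did not share its centre.

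Cytosolic ribosomal proteins, the structural components of the ribosome, were the list with the highest share of shared genes among those drawn: 27 of 76 measured members were shared higher (35.5%) and 0 lower. All 76 had a positive average change, with a median of 0.458, and the list's median was positive in each of the 7 tissues, from 0.09 in lung to 1 in heart. RPS26 had 1790 and 2840 FPKM in the KO hearts and 608 and 757 in the WT hearts, and in kidney 1120 and 2200 against 844 and 814. RPS26 rose by 1.20 in the average (SE 0.19, adjusted p = 0.0167) and was the single member called. After quantile normalisation 70 of the 76 changes were positive, the median was 0.269 and 21 members were shared higher, while RPS26 stayed apart in all 7 tissues with an average change of 0.986 (adjusted p = 0.17). Ribosomal protein genes have many processed copies, so fragments could be assigned among copies differently than to the gene.

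Heat shock chaperones, which refold damaged protein, had positive average changes in 19 of 19 members and a median of 1.83, but the animals differed. The median over the list was 3.66 in KO2 and 0.0627 in KO3. HSPA4L, an HSP110 family chaperone, had liver levels of 27.3 FPKM in KO2, 0.931 in KO3, and 0.221 and 0.239 in WT. It was apart in 6 tissues, with changes of 3.74 to 4.63 in KO2 and of 0.05 to 0.64 in KO3, and did not pass (adjusted p = 0.271). HSP90AB1, the constitutive cytosolic HSP90, was also apart in 6 tissues, with changes of 1.59 to 4.85 in KO2 and 0.32 to 1.13 in KO3 (adjusted p = 0.154). No member of the list was called. These 2 genes were named because they lay apart in 6 tissues, so their common direction follows from that choice. Their size differed between the KO animals. Over the whole list the KO3 medians over tissues ran from −0.686 (HSPH1) to 0.95 (FKBP4).

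The remaining shared higher genes of the map differed in kind. KRBOX1, a KRAB box gene, was apart in all 7 tissues, and its heart levels were 37.1 and 36.8 FPKM with the mutation and 8.85 and 4.48 without (adjusted p = 0.0836). WBP5, MBOAT7 and PPDPF were higher in 6 or 7 tissues with median changes of 1.61, 1.56 and 1.34 and did not pass (adjusted p = 0.138, 0.141 and 0.0903). ADM5, an adrenomedullin-related peptide gene, was higher in all 7 tissues, with a KO median of 6.64 FPKM against 2.07 in WT. ADM5 rose by 1.52 (SE 0.29, adjusted p = 0.0441), a call lost without KO2 (0.074), WT2 (0.22) or WT3 (0.32), without muscle (0.079), liver (0.061), lung (0.065) or kidney (0.085), and with a pseudocount of 0.1 (0.057). HIC1, a transcriptional repressor, was apart in every tissue but liver (median change 1.43, adjusted p = 0.108). DDIT3, the stress-induced transcription factor CHOP, was higher in all 7 tissues, with a KO median of 21.1 FPKM against 9.1 in WT (adjusted p = 0.151). Other integrated stress response genes differed among themselves. PPP1R15A, a regulatory subunit of a phosphatase of eIF2 alpha, was higher in 3 tissues and lower in none, with an average change of 1.17 (adjusted p = 0.243). CHAC1, a glutathione-degrading target of the same pathway, was lower in 5 tissues and fell by 1.63 in the average (SE 0.27, adjusted p = 0.0185), with no call without KO2 (0.064), WT2 (0.079) or muscle (0.15), where its change was −6.08, or with the animal as a correlated unit (0.21). After either scaling CHAC1 was lower in 4 tissues and no longer shared. The list held 1 of 20 measured members shared in each direction, and its median average change was 0.00797.

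Among the shared lower genes, targets of glucocorticoids and of fasting were frequent: 8 of 28 measured members were shared lower (28.6% against 6.72% of all genes) and 0 higher. KLF9, a glucocorticoid-induced transcription factor, was lower in all 7 tissues. It is also on the thyroid hormone response list, as the only shared member there, so its change does not belong to 1 list alone. Muscle levels were 6.02 and 32.6 FPKM in the KO animals and 117 and 110 in the WT animals. Liver levels were 5.91 and 5.21 against 24.2 and 22.5. The WT animals lay close together and the KO animals well below both. KLF9 fell by 2.21 in the average (SE 0.33, adjusted p = 0.014), and the call held without each animal and without each tissue in turn, but not after centring (0.061) or quantile normalisation (0.097) or with no level filter (0.41).

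FKBP5, a chaperone of the glucocorticoid receptor and a standard readout of its activity, was also lower in all 7 tissues. Thymus gave 8.45 and 43.7 FPKM for KO and 130 and 115 for WT, and muscle gave 0.188 and 6.59 against 56.3 and 39.7. FKBP5 fell by 2.37 in the average (SE 0.47, adjusted p = 0.0492), and the call was lost without KO2 (0.15), whose median change was −3.23 against −1.42 in KO3. It was also lost without muscle (0.07), liver (0.12), lung (0.066) or kidney (0.098) and with a pseudocount of 0.1 (0.057). PDK4, the kinase that slows pyruvate oxidation in fasting, was lower in 5 tissues, and its change ran from −5.66 in muscle to −0.06 in brain. TXNIP, an inhibitor of glucose uptake, was lower in 6 (median change −1.17, adjusted p = 0.168). The list had 32 of 34 negative average changes, a median of −0.755, and 5 members called lower, with list medians of −0.992 in KO2 and −0.605 in KO3.

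**Figure D2:**
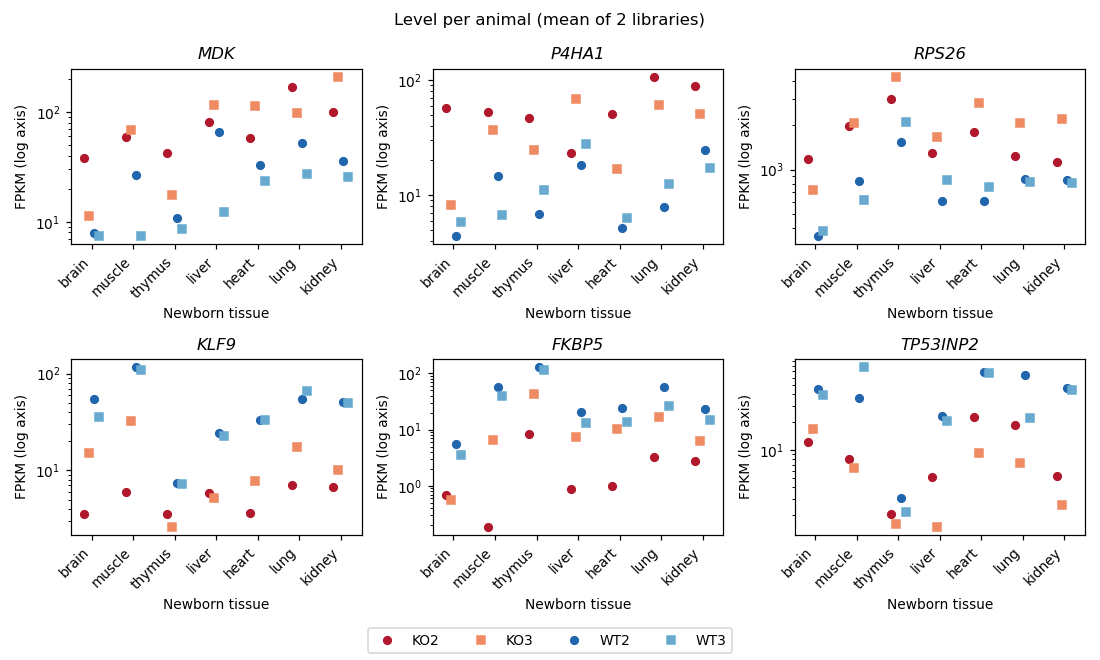
FPKM on a log axis for 6 genes in each newborn tissue, 1 point per animal (mean of 2 libraries), with KO2 and KO3 in red tones and WT2 and WT3 in blue tones. MDK and RPS26 lie higher and KLF9, FKBP5 and TP53INP2 lower in both KO animals in all 7 tissues, and P4HA1 is higher in all but liver.

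Mitochondrial genes were the other large group. Of 61 nuclear-encoded subunits of the oxidative phosphorylation complexes, 14 were shared lower (23%) and 0 higher, and 58 had a negative average change (median −0.485). The list's median was near 0 in brain (0.0223) and heart (0.0317) and lowest in kidney (−1.11), muscle (−0.969) and liver (−0.825). NDUFA9 of complex I was lower in 6 tissues, with a KO median of 29.6 FPKM against 53.3 in WT, and NDUFV2, also of complex I, was lower in 6, at 53.7 against 107. No member was called (adjusted p = 0.235 and 0.228 for these). Most members lay lower in KO2 than in KO3 by their median over tissues, such as NDUFV2 (−1.22 and −0.327). Some lay lower in KO3, such as CYCS (−0.763 in KO2 and −1.53 in KO3). After centring, 9 of the 61 changes were positive and 7 members were shared lower, and after quantile normalisation 19 were.

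Other genes of the map also serve mitochondria. ACOT2, which hydrolyses acyl-CoA in the matrix, and SLC25A20, which carries acylcarnitines across the inner membrane, were lower in all 7 tissues (median changes −1.62 and −1.53, adjusted p = 0.0924 and 0.0934). HIGD1A, an inner membrane protein, was lower in 6 and fell by 1.42 in the average (SE 0.27, adjusted p = 0.0441). That call was lost without KO2 (0.09), WT2 (0.12) or WT3 (0.26), and without liver (0.073), heart (0.05), lung (0.07) or kidney (0.072).

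Proteasome subunits split. Of 30 measured, 5 were shared lower (16.7%), and 29 had a negative average change with a median of −0.431. PSMA2, a ring subunit of the core particle, was the exception: it was higher in 6 tissues, with a KO median of 78.3 FPKM against 41.2 in WT, while the core subunit PSMB1 was lower in 6, at 76.5 against 120. Neither passed (adjusted p = 0.151 and 0.271). The lysosome list had 3 of 27 shared lower (11.1%) and a median of −0.413, with LAMP1, a membrane glycoprotein, lower in all 7 tissues. LAMP1 had a KO median of 49.5 FPKM against 66.7 in WT, and its median change was −1.06 in KO2 and −0.35 in KO3 (adjusted p = 0.28).

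Macrophage genes had 5 of 22 measured members shared lower (22.7%) and 0 higher, and all 23 tested had a negative average change (median −0.785). By their median over tissues most members lay lower in KO2 than in KO3. CSF1R changed by −1.7 in KO2 and 0.688 in KO3, while LYZ, an exception, changed by −0.136 and −0.352. C1QA, C1QB and C1QC, the chains of complement C1q, were lower in every tissue but thymus, where KO3 lay above WT. C1QB stood between 0.0689 and 47.3 FPKM in KO (median 4.39) and between 5.87 and 193 in WT (median 21.8). C1QB fell by 2.12 in the average (SE 0.33, adjusted p = 0.0152), a call lost without KO2 (0.059) and with the animal as a correlated unit (0.066). C1QA and C1QC were called too (adjusted p = 0.0202 and 0.0185) and lost in the same settings. CD163, the haemoglobin scavenger receptor, was lower in all tissues but lung and did not pass (adjusted p = 0.116). The summed macrophage genes lay below both WT animals in both KO animals in muscle, liver and heart, and overlapped in the other tissues.

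Red cell genes moved in opposite directions within the list, with 3 of 15 measured members shared higher (20%) and 1 lower (6.67%). HBZ, the embryonic epsilon globin HBE1 and AHSP, which stabilises free alpha globin, were the 3 higher. AHSP rose by 1.63 in the average (SE 0.31, adjusted p = 0.0426), a call lost without KO2, WT2 or WT3. It was also lost without brain (0.11), liver (0.15), heart (0.067), lung (0.085) or kidney (0.052) and with the animal as a correlated unit (0.069). HBE1 was apart in 6 tissues, at up to 301 FPKM in KO against 1.29 in WT (adjusted p = 0.0934). It was much higher in KO3 (median change 3.85) than in KO2 (0.83). With such WT values HBE1 met the level filter of the test only through KO and could hardly be called lower. HBB, the adult beta globin, was the lower member, apart in all tissues but lung. It ranged from 19.2 to 2890 FPKM in KO (median 141) and from 284 to 5440 in WT (median 1440). In the average HBZ changed by 3.803 (SE 0.297, adjusted p = 9.03e-05) and HBB by −3.025 (SE 0.211, adjusted p = 4.76e-05). Some globin genes are close copies of each other, and fragments of those may be split among the copies. The summed FPKM of the list was lower in both KO animals than in both WT animals in 5 tissues, and it overlapped in liver and lung. HBB weighed heavily in that sum: in the WT hearts HBB had 3470 and 5440 FPKM, and the list summed to 3660 and 5600. Of the 25 members tested, 21 had a positive average change, and the median was 0.47, against −0.113 for all genes.

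The other shared lower genes of the map included TP53INP2, an activator of autophagy, which was lower in all 7 tissues. The KO kidneys had 5.27 and 2.58 FPKM, and the WT kidneys 46 and 44.6. TP53INP2 fell by 2.02 (SE 0.31, adjusted p = 0.0152). APOLD1, an immediate early gene of endothelium, was lower in all tissues but thymus and fell by 1.72 (SE 0.31, adjusted p = 0.0316), a call lost without KO2 (0.078), WT2 (0.069), WT3 (0.13), muscle (0.056) or liver (0.065). SORT1, a sorting receptor of the trans-Golgi, RBM3, a cold-inducible RNA-binding protein, and SRD5A3, which makes dolichol for N-glycosylation, were each lower in all 7 tissues with median changes of −1.68, −1.62 and −1.62. None of these passed (adjusted p = 0.112, 0.0901 and 0.0574). RBM3 ranged from 12.5 to 75.5 FPKM in KO and from 44.3 to 177 in WT over the tissues. TIGAR, a p53 target that slows glycolysis, was lower in 6 tissues, with a KO median of 0.57 FPKM against 3.67 in WT (adjusted p = 0.0841). The p53 target list as a whole had 1 of 23 shared higher (4.35%) and 2 lower (8.7%), near the shares of all genes.

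In several programmes few or no members were shared. Cell cycle and replication genes had 1 of 20 measured members shared higher (5%) and 0 lower, immediate early genes 1 of 22 each way (4.55%), and collagens and matrix genes 0 of 24 either way. None of the 9 measured neutrophil genes or 12 endothelial genes was shared. Glycolysis had 1 of 23 shared higher, SLC2A3.

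Double-strand break repair, a process in which SIRT6 takes part, had 1 of 18 shared higher (5.56%), RAD50, and 2 lower (11.1%), LIG4 and XRCC5, and its median average change was −0.0965. After quantile normalisation XRCC5 was lower in 3 tissues and no longer shared.

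**Figure D3:**
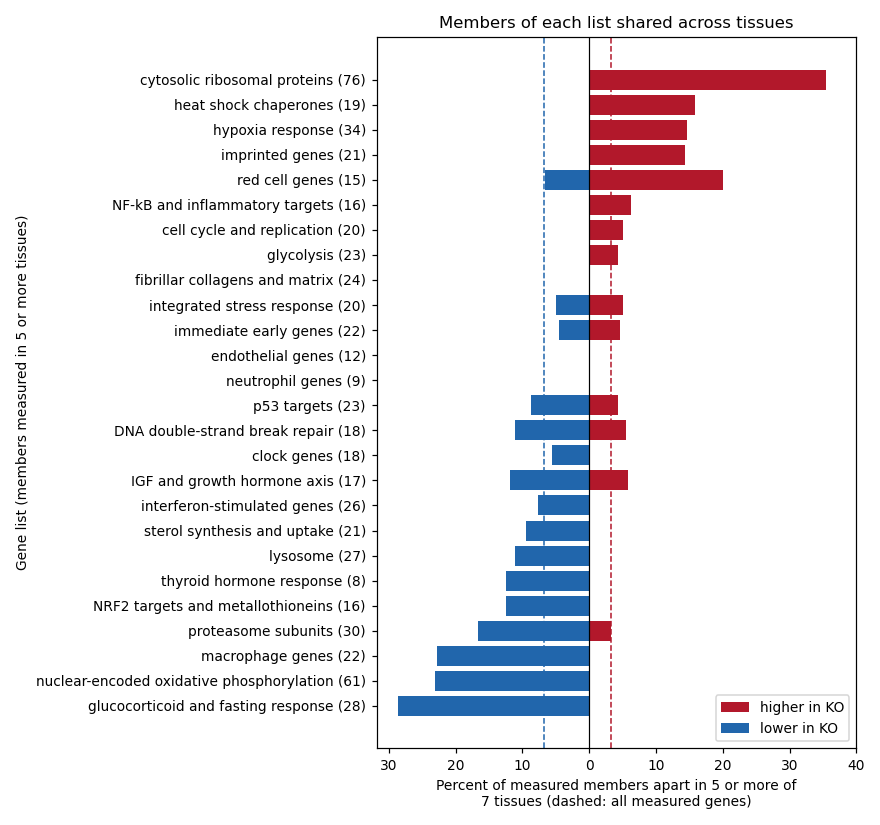
Percent of each list's measured members that were apart in 5 or more of 7 tissues, higher in KO to the right and lower to the left, with the number measured in brackets and dashed lines at 3.32% and 6.72%, the shares of all measured genes. Ribosomal proteins reach 35.5% on the higher side, and glucocorticoid and fasting genes 28.6% on the lower side.

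The WT fetal libraries gave a readout of the shared genes in animals that took no part in choosing them. Here a gene was apart when both month 4 libraries lay on one side of both month 2 libraries. In fetal muscle, 44.3% of all 12347 measured genes were higher at month 4 and 29.1% lower, with a median log2 difference of 0.164. Of 368 genes shared higher in newborn KO, 14.9% were higher at month 4 and 61.1% lower (median −0.482). Of 732 genes shared lower in newborn KO, 64.2% were higher at month 4 and 15% lower (median 0.474). In muscle, most genes shared in KO thus differed from WT in the direction of the month 2 libraries.

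In fetal brain the shares were closer to those of all genes, though the difference from muscle was not tested. Of 13109 measured genes, 30.7% were higher at month 4 and 20.4% lower. The genes shared higher in KO divided 21.5% and 24.9%, and those shared lower 38.1% and 11%. When the shared genes were chosen from centred libraries, the muscle shares were 20.8% and 53.9% for the higher genes and 70% and 11.8% for the lower ones. Nothing states that the 2 libraries of a fetal group came from separate fetuses.

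**Figure D4:**
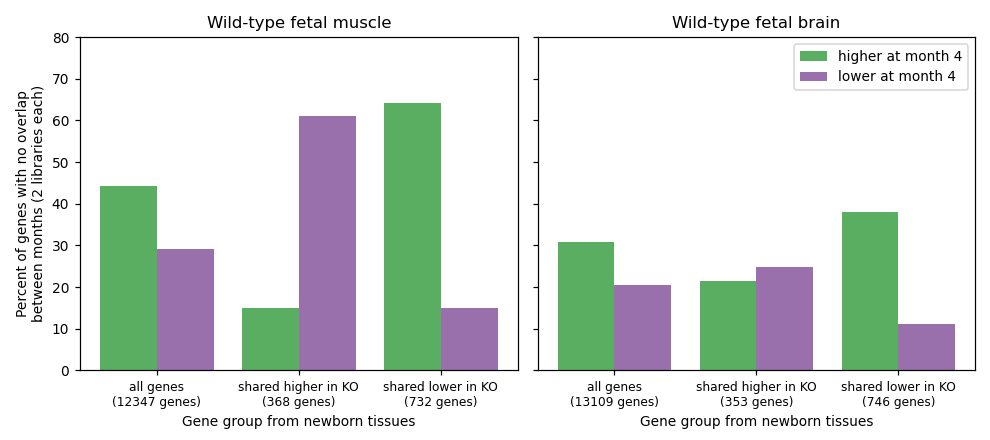
Percent of genes higher (green) or lower (purple) at gestation month 4 than at month 2 in WT fetal muscle and brain, for all measured genes and for genes shared higher or lower in newborn KO. In muscle 61.1% of the genes shared higher in KO were lower at month 4, and 64.2% of those shared lower were higher.

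Single genes did not all follow this order. PAFAH1B3 fell from 45.3 and 55.1 FPKM at month 2 to 18.5 and 18.6 at month 4 in muscle, and KLF9 went from 0.698 and 0.67 to 5.89 and 5.03. P4HA1 and VEGFA, higher in KO newborns, were also higher at month 4 in muscle, at 14.4 and 7.33 against 3.55 and 2.57 FPKM for P4HA1, and at 56.3 and 73.4 against 20.4 and 18.8 for VEGFA. The C1q genes, lower in KO, were lower at month 4 in muscle and higher in brain. FKBP5 was low at both months in both tissues, at 0.0795 to 0.666 FPKM.

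A further group lay close to 0 FPKM in WT. Of the 8 genes with the smallest p among those called higher in the average, REC114, ADAD2 and COX7B2 are known mainly from the germ line: REC114 acts in meiotic double-strand break formation, ADAD2 is an RNA-binding protein of spermatids, and COX7B2 is a testis form of a respiratory chain subunit. REC114 ranged from 0.222 to 6.31 FPKM in KO (median 1.77) and from 0 to 0.391 in WT, where it was listed at 0 in 10 of the 14 animal and tissue values. ADAD2 ranged from 0.255 to 9.51 in KO (median 1.85) and from 0 to 0.557 in WT. COX7B2 ranged from 0.279 to 8.82 in KO (median 3.42) and from 0 to 0.309 in WT, and KO2 muscle, at 0.279, was the KO value that lay within WT.

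REC114 rose by 1.46 in the average (SE 0.18, adjusted p = 0.00311), ADAD2 by 1.37 (SE 0.18, adjusted p = 0.00501) and COX7B2 by 1.85 (SE 0.27, adjusted p = 0.0119). All WT values of these 3 genes were below 1 FPKM, so they met the level filter only through KO. Genes of this kind could be called only higher. All 3 calls held without each animal in turn, and that of COX7B2 was lost without brain (0.054). After centring or quantile normalisation REC114 kept its call, while ADAD2 (0.09 and 0.097) and COX7B2 (0.06 and 0.097) missed the threshold, and with no level filter none of the 3 passed. LHB, the beta chain of luteinizing hormone, which the pituitary makes, was higher in all 7 tissues at any level. Its KO median was 2.34 FPKM against 0.139 in WT (adjusted p = 0.0167), a call lost without WT2 (change 1.41) or without brain (0.054). In WT it was low outside lung and heart (highest value 3.6), so LHB too met the level filter only through KO. BNIPL had a KO median of 5.26 against 0.387 (adjusted p = 0.0167; 0.071 without KO2, 0.23 without WT2 and 0.077 without brain).

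A list of 66 germ-line genes was then written after these values had been seen, so its counts are a description. With no minimum level, 772 of 22480 genes with a value above 0 in 5 or more tissues were shared higher (3.43%) and 993 lower (4.42%). Of 54 germ-line genes with such values, 13 were shared higher (24.1%), 8 of them in all 7 tissues, and 1, SYCE3, was shared lower (1.85%). Besides the 3 genes above they included PIWIL2, MOV10L1, GPAT2 and DDX4, which act in the piRNA pathway that silences transposons in germ cells. PIWIL2 had a median of 0.949 FPKM in KO against 0.172 in WT, MOV10L1 1.27 against 0.313, and DDX4 0.255 against 0.0856. GPAT2 ranged from 0.603 to 3.76 in KO (median 1.88) and from 0 to 0.957 in WT (median 0.233), so it too met the level filter only through KO. It rose by 1.05 in the average (adjusted p = 0.03), a call lost without KO2, WT2 or WT3.

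The levels were low throughout, most of them under 5 FPKM, and the deposited FPKM hold no depth from which a counting error could be had. Among 6 measured genes of a short list of placental and pituitary hormone genes, also written after the values were seen, 3 were shared higher: LHB, PLAC1 and POMC. PLAC1, a placental gene, had a median of 0.42 FPKM in KO against 0.0465 in WT. In the WT fetal libraries REC114 reached 0.246 FPKM, ADAD2 0.698 and GPAT2 1.16, so these genes were low there also.

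**Figure D5:**
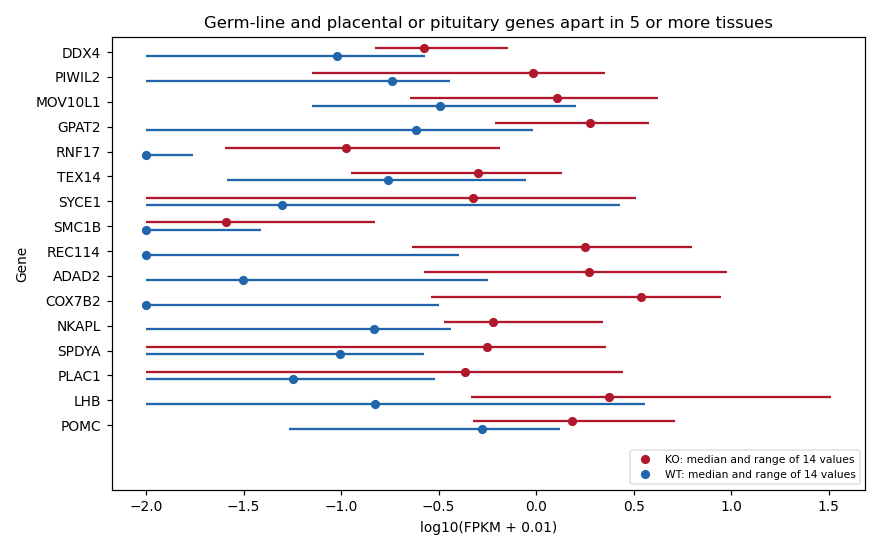
Median (point) and range (line) of log10(FPKM + 0.01) over the 14 animal and tissue values of KO (red) and WT (blue) for the listed germ-line and placental or pituitary genes that were shared higher in KO. The KO medians of REC114, ADAD2 and COX7B2 are 1.77, 1.85 and 3.42 FPKM, against 0 to 0.0215 in WT.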

How the data were processed

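RNA from 7 newborn tissues and 2 fetal tissues was sequenced from TruSeq libraries on an Illumina HiSeq instrument, per the labels' protocols. Tools listed in the submitters' processing notes are Cufflinks 2.0.2, HISAT 0.1.6 and CASAVA, with no role. The sources used here name no genome build, annotation or strand setting. Coordinates are therefore left out, and reads of overlapping genes on opposite strands cannot be separated. The authors deposited FPKM, normalised by gene length and mapped fragments, which keep no read depth, so the depth is unknown; FPKM summed to 333822 to 586824 per newborn library. An FPKM listed at 0 can be a failed estimate. The labels do not say whether repeat libraries came from separate tissue pieces.

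Of 11294 LOC identifiers, 721 were given symbols from a RefSeq gene table. Y-linked genes were dropped, and 15032 of 28133 genes averaged 1 FPKM or more. Values were log2(FPKM + 1), which understates changes of low genes, averaged over 2 repeat libraries. limma 3.58.1 in R 4.3.3 (trend) fitted each animal's average over tissues, and an F test over 28 animal and tissue values tested differences among tissues, both at an adjusted p of 0.05. The scripts were tested on simulated data. When each simulated gene kept its own spread in the average fit, more calls were false, averaged over repeated draws, than the adjusted p implies, so some of the calls in the average may be false. Drawing spreads from limma's fitted prior, a version added after that result, brought the share near the threshold.

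Named genes were SIRT6, IGF2, HBZ and HBB, and the 15 highest and 15 lowest median changes among genes apart in 6 or 7 tissues. Those 15 per direction needed 5 FPKM or more in the higher genotype in 5 or more tissues. Also named were up to 8 called genes per direction, 6 by the F test, and up to 4 members of each list. Members and lists were chosen with earlier results of these data known. Alternatives changed the pseudocount (0.1), the level filter, the scaling, the fit, and the animals and tissues included. Same-numbered KO and WT animals were not treated as paired in the main fits. The correlation of their deviations was −0.0508, which with 2 animals per genotype cannot show whether they were paired.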

Additional observations from a re-analysis of the deposited data

Results flagged for a closer look

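For 15 named genes limma's F test found that the KO change differed among the 7 tissues, with values adjusted over all genes tested. UCP3, CRP, SDS, CYP2D17, SERPINA5 and SFTPA2 were named for their small p in this same test, so their passing follows from that choice. UCP3 and SFTPA2 averaged 1 FPKM or more in 1 tissue, and CRP, SDS and UGT3A1 in 2. Near 0 FPKM in both genotypes the log2 change is near 0, so for these genes the test largely restates where they were expressed. UCP3, a mitochondrial uncoupling protein, had the change of −6.26 in muscle against −0.256 to 0.265 elsewhere (adjusted p = 1.86e-08). Its KO values reached at most 0.964 FPKM, so it met the level filter only through WT. CRP, an acute phase protein, changed by −7.55 in liver and −1.57 in kidney (adjusted p = 2.38e-08). UGT3A1, a glycosyltransferase, changed by −4 in kidney and −3.43 in liver (adjusted p = 8.5e-08), and SDS by −6.69 in liver (adjusted p = 1.05e-07). CYP2D17, a drug-metabolising enzyme, changed by −4.84 in liver (adjusted p = 1.3e-07). SERPINA5, a protease inhibitor, changed by 3.03 in heart and −3.10 in kidney (adjusted p = 2.49e-07), and the surfactant protein SFTPA2 by −4.42 in lung (adjusted p = 3.65e-07). PDK4 was lower in 5 tissues to unequal extent (adjusted p = 0.00899). REC114 was positive in all 7 tissues, from 0.49 in muscle to 2.39 in heart (adjusted p = 0.00885). CHAC1 ranged from −6.08 in muscle to 0.467 in thymus (adjusted p = 0.00167). The interferon-stimulated genes IFI27 and IFI6 reached their lowest changes at −3.60 in heart and −2.52 in liver (adjusted p = 0.00386 and 0.0326). PEG10 changed by 3.76 in muscle and −0.687 in brain (adjusted p = 0.00424), the T cell gene CD3D by 1.62 in liver and −2.12 in lung (adjusted p = 0.00516), and the lactate transporter SLC16A3 by 1.38 in liver and −0.799 in muscle (adjusted p = 0.0353). The F test was lost for REC114 and PDK4 without WT2 (0.565 and 0.425), without WT3 (0.449 and 0.447) or without muscle (0.0781 and 0.12), for UCP3 without muscle (0.716), for CYP2D17 without liver (0.183) and for SFTPA2 without lung (0.883). It was also lost without WT3 for CHAC1 (0.153), IFI27 (0.168), IFI6 (0.251), PEG10 (0.387), CD3D (0.314) and SLC16A3 (0.921), without WT2 for CHAC1 (0.0548), IFI6 (0.437), PEG10 (0.339), CD3D (0.167) and SLC16A3 (0.445), and without KO2 for IFI27 (0.0774), IFI6 (0.0885) and CD3D (0.0602). Without muscle it was lost for CHAC1 (0.41), PEG10 (0.336) and SLC16A3 (0.182), and without liver for CD3D (0.136) and IFI6 (0.321). IFI6 and SLC16A3 lost it in further settings as well.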

How the results depend on the processing

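limma's count of 74 genes in the average became 0 with no level filter (2622 at an unadjusted p under 0.05, against 2003), 9 after centring, 7 after quantile normalisation and 215 in 1 fit of all tissues with the animal as a correlated unit. Leaving out brain, thymus, liver or kidney gave 27, 116, 41 and 48, and leaving out each animal gave 49 (without KO2) to 1099 (without KO3). With the animal number as a replicate block the count was 75, and no named call was lost. Whether the numbers pair the animals is not stated.

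The F test's 861 genes became 352 with a pseudocount of 0.1, 1467 with no level filter, 444 with a filter at 5 FPKM, 560 without liver, 353 without kidney, and 105 (without WT3) to 3940 (without KO3) when an animal was left out.

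The 1157 shared genes became 1765 with no level filter, 647 with a filter at 5 FPKM, 607 when all 4 KO libraries had to lie apart from all 4 WT libraries, 2480 for 4 or more tissues and 108 for all 7. Leaving out brain, muscle, thymus, liver, lung or kidney gave 630, 687, 695, 603, 631 and 566, with 5 of the 6 remaining tissues required. Leaving out an animal gave 2014 to 3481, where 1 animal against 2 overlaps less easily. SIRT6 ranged from −0.549 (without KO3) to 0.155 (without KO2), a change of sign. With 2 animals per group and no depth, small differences and levels near 0 cannot be resolved.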
